A study of Arabidopsis thaliana with 6 samples.

Results

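The 33 XTH genes of Arabidopsis encode the xyloglucan endotransglucosylase/hydrolases, and RNA-seq of wild type (WT, Col-0) root tips measured their transcripts. The members were taken by their 33 loci from a table of 24379 genes, and every locus was found in it. The Al samples came from 7-day-old WT seedlings treated with 25 µM AlCl3 for 3 h, and the control samples from WT seedlings of the same age kept without AlCl3, with 3 samples in each group. All seedlings were grown hydroponically in dilute MGRL nutrient solution, carried no transgene or mutation, and were sampled as the apical 0.5 cm of the root. The dose, the time and the tip length come from the study's methods, and the labels give the tissue only as roots. Nothing in the labels says that the samples of a group were grown as separate cultures, so p-values measure the spread between these samples, which may be technical.

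XTH enzymes act on xyloglucan, the hemicellulose that coats and tethers cellulose microfibrils in the primary cell wall. They cut a xyloglucan chain and either join the new end to another chain (transglucosylation) or release it with water (hydrolysis), and by this they loosen or reinforce the walls of growing cells. The family falls into groups I, II, IIIA and IIIB by sequence, and hydrolase activity is known from group IIIA, which holds XTH31 and XTH32. In Arabidopsis roots xyloglucan is also one of the wall polymers that binds Al, and mutants that lack XTH31 or XTH17 are known to be more resistant to Al than WT.

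XTH22 (TCH4), XTH23 and XTH18 rose most in the family, and for this reason the 250 bases before their annotated starts are shown. They were read from the TAIR10.1 genome at chr5:23308681-23308930 for XTH22, chr4:14827212-14827461 for XTH18 and chr4:13128144-13128393 for XTH23. XTH23 lies on the plus strand and the others on the minus strand, and each sequence runs 5′ to 3′ towards the gene. Capitals mark a W-box core (TTGAC, or GTCAA on the opposite strand), the letters that WRKY transcription factors are known to bind, and a rapid stress response element (CGCGTT, or AACGCG on the opposite strand), known from genes that answer wounding and other stresses within minutes.
XTH22: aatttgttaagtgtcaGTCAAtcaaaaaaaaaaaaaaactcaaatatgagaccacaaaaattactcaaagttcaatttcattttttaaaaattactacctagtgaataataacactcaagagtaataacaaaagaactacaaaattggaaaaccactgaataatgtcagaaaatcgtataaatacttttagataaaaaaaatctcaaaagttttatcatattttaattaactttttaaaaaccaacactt
XTH18: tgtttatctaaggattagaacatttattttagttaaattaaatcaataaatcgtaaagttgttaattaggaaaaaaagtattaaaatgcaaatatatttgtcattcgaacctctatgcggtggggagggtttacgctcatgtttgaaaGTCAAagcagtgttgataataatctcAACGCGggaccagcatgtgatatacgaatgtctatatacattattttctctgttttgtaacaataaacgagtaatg
XTH23: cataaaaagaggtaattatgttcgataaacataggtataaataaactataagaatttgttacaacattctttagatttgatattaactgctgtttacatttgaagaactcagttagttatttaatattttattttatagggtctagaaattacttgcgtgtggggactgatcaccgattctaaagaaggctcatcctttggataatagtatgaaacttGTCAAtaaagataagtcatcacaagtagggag

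In the promoter of XTH18 the W-box core lies 102 to 98 bases before the start and the rapid stress response element 76 to 71 bases before it. XTH22 and XTH23 hold 1 W-box core each, at 234 to 230 bases and at 32 to 28 bases. XTH17 is shown beside them because its promoter, at chr1:24256804-24257053 on the plus strand, repeats that of XTH18 exactly over the 73 bases next to the start. This was the only shared run of at least 20 bases among the 528 pairs of member promoters.
XTH17: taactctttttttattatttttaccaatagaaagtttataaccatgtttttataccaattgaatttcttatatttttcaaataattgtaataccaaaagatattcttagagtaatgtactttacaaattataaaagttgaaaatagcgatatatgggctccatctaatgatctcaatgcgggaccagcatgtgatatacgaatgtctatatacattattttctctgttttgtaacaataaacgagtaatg

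The run ends inside the motif. Counting back from 1 at the base next to the annotated start, the substitution from XTH18 to XTH17 is C74T, which leaves XTH17 without the rapid stress response element. Over the last 100 bases before the start, 87 were the same in both genes. This pair was singled out after the sequences and the values of both genes had been seen. The rapid stress response element was found in the promoters of 3 of 33 members. It was in 2.59% of the promoters of 27443 protein-coding genes of TAIR10.1, searched on both strands over the same length. These are the promoters meant by all promoters below. The other carriers, shown for comparison with XTH18, are XTH20 at chr5:19481647-19481896 on the plus strand and XTH13 at chr5:23304096-23304345 on the minus strand. XTH20 also holds W-box cores at 218 to 214 and 150 to 146 bases before the start, and the first of them overlaps a DRE core (CCGAC), also in capitals.
XTH20: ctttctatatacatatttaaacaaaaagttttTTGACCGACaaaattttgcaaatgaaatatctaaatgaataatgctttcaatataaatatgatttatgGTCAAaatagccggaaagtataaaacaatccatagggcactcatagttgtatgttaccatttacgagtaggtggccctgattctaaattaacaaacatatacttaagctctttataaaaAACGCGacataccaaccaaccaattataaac
XTH13: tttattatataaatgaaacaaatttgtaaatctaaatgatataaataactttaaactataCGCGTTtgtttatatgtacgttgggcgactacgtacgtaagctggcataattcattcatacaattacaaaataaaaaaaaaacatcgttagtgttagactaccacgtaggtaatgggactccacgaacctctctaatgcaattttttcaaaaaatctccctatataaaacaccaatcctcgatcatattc

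The W-box core was common, in 15 of 33 member promoters against 44.9% of all promoters, and it was held by 7 of the 11 members that rose and 4 of the 9 that fell. No member promoter held a G-box (CACGTG) or a GCC box (GCCGCC), which were found in 6.49% and 1.87% of all promoters. The DRE core was found in XTH20 alone of the members, against 12% of all promoters, and an auxin response element (TGTCTC) in XTH3 and XTH6, against 10.9%. A match is a description of letters in this window.

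Levels are given in FPKM, fragments scaled to the length of the transcript and to the mapped fragments of the sample, which allows members to be set beside each other. Steps in the low FPKM values put the depth at 21700000, 21700000 and 21600000 fragments for the Al samples and at 21900000, 21850000 and 21650000 fragments for the control samples. The linear models of limma compared log2(FPKM + 1) between the groups for the 18463 genes that reached an FPKM of 1 in 3 samples or more, and a gene was called at a Benjamini-Hochberg adjusted p under 0.05. On this scale the change of a low gene is understated, so folds are also given as the ratio of the group means.

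After Al treatment 11 members rose, 9 fell and 5 were not called, out of the 25 members that passed the filter. The share that rose was 44.0%, beside 21.3% of all tested genes, and the share that fell was 36%, beside 38.5% of all tested genes. In either direction 59.8% of all tested genes were called. Changes of 1 or more on the log2 scale were found for 9 members that rose and 5 that fell, beside 6.45% and 2.88% of all tested genes. The 5 include XTH21 and XTH33, which passed the filter through the control samples alone, so their fall was bound up with their entry. The median log2 fold change was 0.16 over the tested members and −0.13 over all tested genes. As deposited, 3933 of all tested genes rose and 7106 fell. Scaling by the median ratio, which moves the median of all genes to 0, gave 5381 higher and 4984 lower, and under it 13 members were higher and 7 lower. In bulk root tips, fewer cells of a type and less RNA per cell cannot be told apart.

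**Figure D1:**
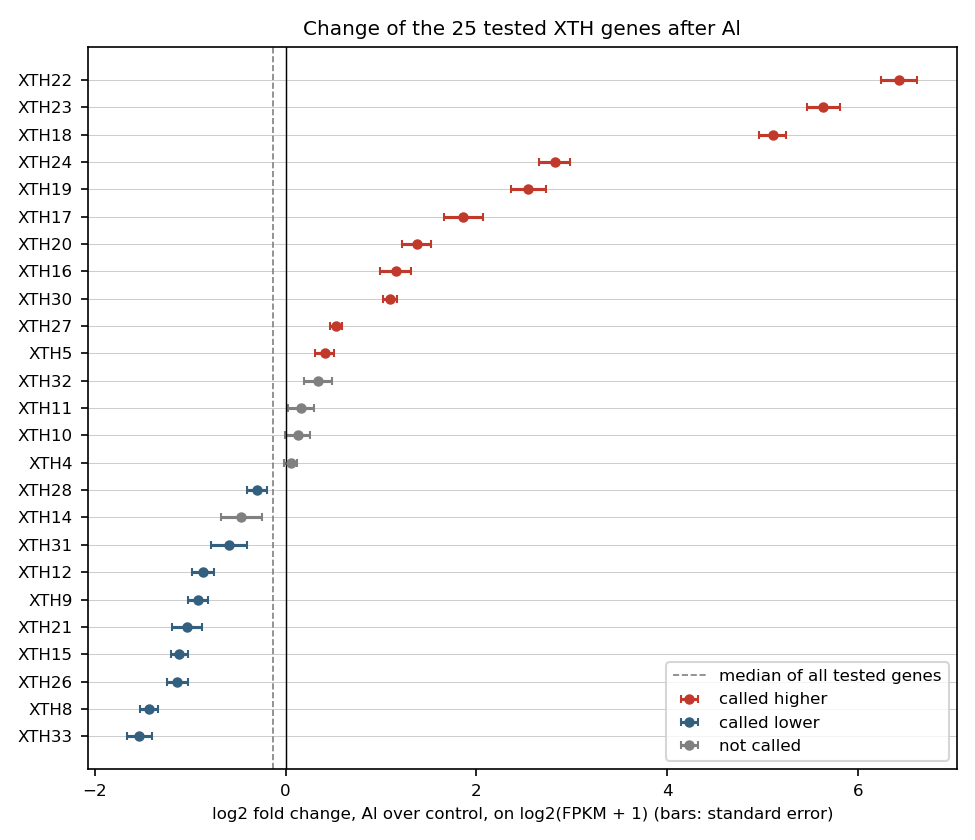
Log2 fold change of Al over control on log2(FPKM + 1) for the 25 tested XTH genes, with bars of 1 standard error and colour by call. XTH22 (6.43), XTH23 (5.63) and XTH18 (5.10) stand far to the right, and XTH33 (−1.53) is the lowest. XTH21 and XTH33 passed the filter through the control samples alone.

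Group II held 8 of the 11 members that rose. Of its 13 tested members 8 rose (61.5%) and 4 fell (30.8%), and their median log2 fold change was 1.37. Of all tested genes 21.3% rose and 38.5% fell. In group I, 1 of 6 tested members rose (16.7%) and 2 fell (33.3%), both near or under those shares. In group III, 2 of 6 rose and 3 fell, which was 0 and 1 of the 2 members of group IIIA and 2 and 2 of the 4 tested members of group IIIB. The difference between groups was not tested, and the groups also differ in how many members were expressed in these roots.

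XTH22 (AT5G57560), the touch-induced gene TCH4, had 952 FPKM, 663 FPKM and 684 FPKM in the Al samples, against 6.88, 6.22 and 10.8 FPKM in the control samples. Every Al sample was far above every control sample, and the mean was 96.1-fold higher after Al (log2 fold change 6.43, standard error 0.19, adjusted p = 1.56e-08). By mean level XTH22 ranked 63rd of the 24379 genes after Al and 11783rd in control, and its log2 fold change ranked 3rd of all tested genes. The gene lies on chromosome 5 from 23307006 to 23308680 and has 2 exons.

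XTH23 (XTR6, AT4G25810), the member closest to XTH22 with 80.9% of its aligned coding bases identical, had 144.9, 101.1 and 90.67 FPKM after Al, against 1.64, 1.19 and 0.93 FPKM in control. It was near the filter limit in control and among the 5 highest members after Al, 89.5-fold higher by means (log2 fold change 5.63, standard error 0.17, adjusted p = 1.80e-08).

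XTH18 (AT4G30280), known from primary root elongation, had 652, 506 and 473 FPKM after Al, against 16.8, 15.8 and 11.9 FPKM in control. It was 36.7-fold higher (log2 fold change 5.10, standard error 0.14, adjusted p = 1.11e-08) and ranked 110th of all genes by level after Al, against 8411th in control. XTH24 (MERI5, AT4G30270), first known from meristems, had 497.8, 391.7 and 498.6 FPKM after Al, against 52.0, 60.6 and 84.1 FPKM in control. It was already the third highest member in control and was 7.06-fold higher after Al (log2 fold change 2.82, standard error 0.16, adjusted p = 1.05e-06). In each of these 4 genes the lowest Al sample was above the highest control sample, and all of them were called under every alternative in which they were tested.

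The other risers of group II are XTH16, XTH17, XTH19 and XTH20, and XTH17, XTH18, XTH19 and XTH20 are close relatives known from roots. XTH19 (AT4G30290), known with XTH20 from the rejoining of cut stems, had 55.2, 39.6 and 32.3 FPKM after Al, against 7.02, 6.98 and 4.98 FPKM in control, 6.69-fold higher (log2 fold change 2.54, standard error 0.18, adjusted p = 4.69e-06). XTH17 (AT1G65310) had 18.3, 19.9 and 14.9 FPKM after Al, against 5.35, 4.89 and 2.57 FPKM in control, 4.14-fold higher (log2 fold change 1.86, standard error 0.20, adjusted p = 6.44e-05). XTH20 (AT5G48070) had 22.7, 29.0 and 18.4 FPKM after Al, against 8.84, 8.72 and 7.27 FPKM in control, 2.82-fold higher (log2 fold change 1.37, standard error 0.15, adjusted p = 5.86e-05). In these 3 genes every Al sample was above every control sample.

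These 4 close relatives rose by unequal amounts although their coding sequences are close. XTH18 shares 92.2% of its aligned coding bases with XTH17, 89.2% with XTH19 and 85.6% with XTH20, and the folds were 36.7 for XTH18, 4.14 for XTH17, 6.69 for XTH19 and 2.82 for XTH20. In control their means were 14.8, 4.27, 6.33 and 8.28 FPKM in that order, with every XTH18 sample above those of the other genes, and after Al the means were 543.6, 17.7, 42.4 and 23.3 FPKM in the same order. Whether the folds differ from each other was not tested. Because reads from near-identical stretches can be credited to either copy, the longest exact run that XTH18 and XTH19 share is shown, 68 coding bases at chr4:14826483-14826550 and chr4:14829475-14829542, both on the minus strand.
XTH18 and XTH19: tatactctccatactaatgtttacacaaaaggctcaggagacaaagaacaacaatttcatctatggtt

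Of the 50-base stretches of the transcript, 1.57% in XTH18, 1.63% in XTH19 and 0.171% in XTH17 also occur in another gene, and none in XTH20, XTH22, XTH23 or XTH24. How the authors credited such reads is not given in the sources used here.

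XTH16 (AT3G23730) had 26.7, 19.6 and 17.5 FPKM after Al, against 10.7, 8.57 and 7.51 FPKM in control, 2.38-fold higher (log2 fold change 1.16, standard error 0.16, adjusted p = 0.000274). Its closest relative by coding sequence, XTH15, went the other way. XTH15 (XTR7, AT4G14130), known from shade responses, had 26.7, 25.5 and 29.1 FPKM after Al, against 60.9, 66.2 and 52.6 FPKM in control, 2.21-fold lower (log2 fold change −1.11, standard error 0.091, adjusted p = 1.04e-05). The coding sequences of the pair are 81.7% identical. AT4G14120 overlaps XTH15 on the opposite strand and shares 28.8% of its 50-base stretches, so without strand information the reads of the 2 genes cannot be told apart there.

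**Figure D2:**
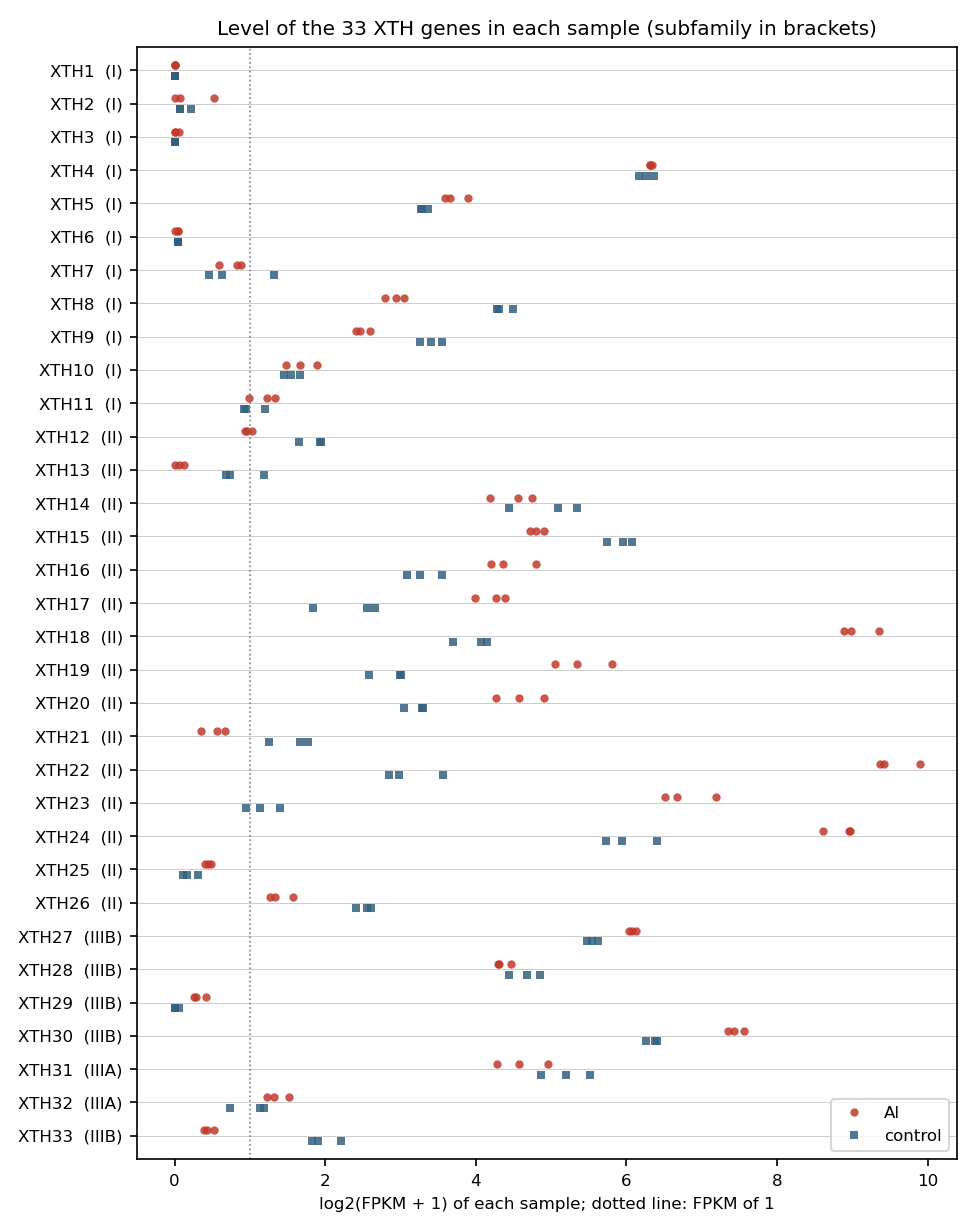
Level of the 33 XTH genes in each sample as log2(FPKM + 1), with Al samples drawn above control samples in each row and the subfamily in brackets. The Al points of XTH18, XTH22 and XTH23 lie apart from their control points, while both groups of XTH4 fall together.

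The family as a whole took a larger share of the transcript pool after Al. The FPKM of the 33 members summed to 2793, 2222 and 2286 in the Al samples, against 542.8, 526.3 and 514.4 in the control samples. The mean sum was 2434 ± 313 FPKM after Al and 527.8 ± 14.3 FPKM in control (SD, n = 3 each), a ratio of 4.61. This sum over members was not tested.

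XTH18, XTH22, XTH23 and XTH24 made up 80.4%, 74.8% and 76.4% of the sum in the Al samples, against 14.2%, 15.9% and 20.9% in the control samples. Without them the sum was 546.5, 560.9 and 539.9 FPKM after Al, against 465.5, 442.4 and 406.7 FPKM in control, a ratio of 1.25. The ratio of the 4 genes alone was 21.03, and the larger part of the added FPKM lay in them. These are the 4 tested members with the largest log2 fold changes in the same samples, so a high ratio was bound up with their choice. The 9 members that fell summed to a mean of 85.03 FPKM after Al, against 162.1 FPKM in control, a ratio of 0.525. These members were picked by their calls in the same samples, so a lower sum after Al was fixed by that choice. Their share of the larger sum was 3.55% after Al, against 30.7% in control. In control the pool was spread over more genes, led by XTH30 with 15.3%, XTH4 with 14.4%, XTH24 with 12.5% and XTH15 with 11.3%. After Al it was led by XTH22 with 31.3%, XTH18 with 22.3% and XTH24 with 19.1%.

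**Figure D3:**
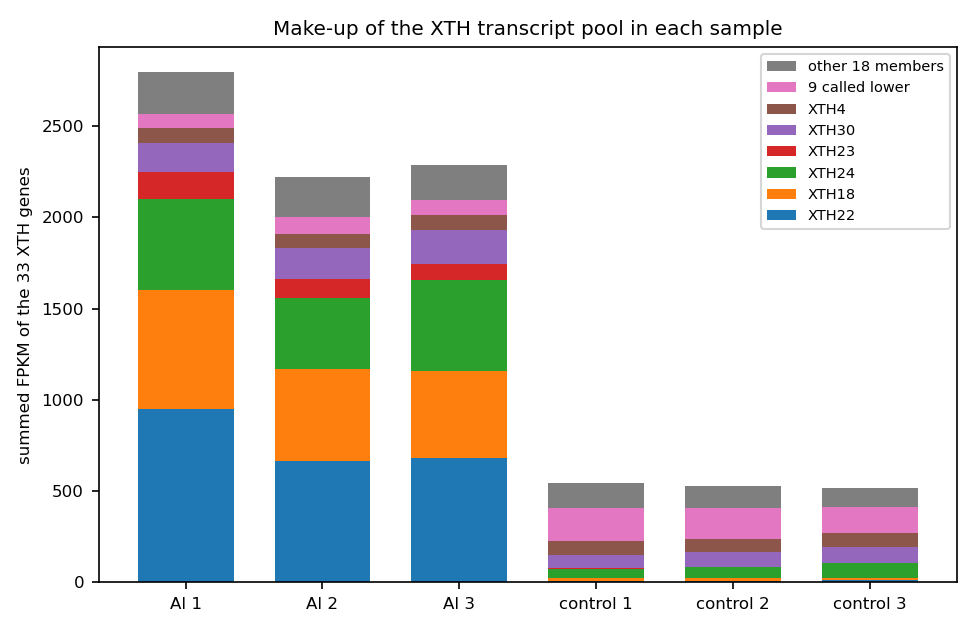
Summed FPKM of the 33 XTH genes in each sample, stacked by gene or group of genes. The 3 Al bars reach between 2222 and 2793 FPKM and the 3 control bars between 514.4 and 542.8 FPKM, and the added height is mostly XTH22, XTH18 and XTH24.

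The 2 highest members in control differed in what they did. XTH30 (AT1G32170), the highest, had 163, 171 and 187 FPKM after Al, against 75.6, 82.5 and 83.5 FPKM in control, 2.16-fold higher (log2 fold change 1.1, standard error 0.073, adjusted p = 2.62e-06). XTH4 (EXGT-A1, AT2G06850), second in control, had 79.7, 78.2 and 78.5 FPKM after Al, against 75.8, 70.9 and 81.5 FPKM in control. Its groups overlapped and it was not called (log2 fold change 0.053, standard error 0.066, adjusted p = 0.512), with a sign that turned under TPM scaling, quantile normalization and the replicate block with GC correction. Under median-ratio scaling it was called higher (log2 fold change 0.20, adjusted p = 0.0290).

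XTH27 (EXGT-A3, AT2G01850), known from the vessels of leaf veins, averaged 66.4 ± 2.18 FPKM after Al and 45.8 ± 2.29 FPKM in control (SD, n = 3 each) and rose (log2 fold change 0.53, standard error 0.063, adjusted p = 0.000109). XTH5 (AT5G13870) was the only riser of group I, with 12.2 ± 1.53 FPKM after Al and 8.90 ± 0.344 FPKM in control (SD, n = 3 each; log2 fold change 0.41, standard error 0.096, adjusted p = 0.00536). Of the 11 members that rose, 6 had their highest value in Al replicate 1, and without that sample 11 members were also called higher.

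Among the members that fell, XTH33 had the lowest log2 fold change. XTH33 (AT1G10550), whose protein is known to be anchored at the plasma membrane, had 0.31, 0.43 and 0.35 FPKM after Al, against 3.63, 2.53 and 2.74 FPKM in control, 8.17-fold lower (log2 fold change −1.53, standard error 0.13, adjusted p = 1.14e-05). XTH21 (AT2G18800), known from primary root growth, had 0.47, 0.59 and 0.28 FPKM after Al, against 2.17, 2.40 and 1.39 FPKM in control, 4.45-fold lower (log2 fold change −1.04, standard error 0.16, adjusted p = 0.000425). Both genes passed the filter through the control samples alone, so a lower level after Al was bound up with their entry into the test. At this depth their values rest on few fragments, 8 to 93 per sample for XTH33 and 7 to 61 for XTH21, and 7.15% of the 50-base stretches of XTH21 also occur in another gene.

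XTH8 (AT1G11545) had 6.66, 7.25 and 5.96 FPKM after Al, against 21.5, 18.5 and 18.8 FPKM in control, 2.96-fold lower (log2 fold change −1.43, standard error 0.094, adjusted p = 2.37e-06). XTH9 (AT4G03210), also of group I, averaged 4.62 ± 0.377 FPKM after Al and 9.66 ± 1.09 FPKM in control (SD, n = 3 each) and fell by 0.92 on the log2 scale (standard error 0.10, adjusted p = 7.18e-05). Neither gene had an Al sample as high as a control sample.

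XTH26 and XTH14 are known from the root hair zone, and XTH12 and XTH13 also belong to group II. XTH26 (AT4G28850) had 1.40, 1.96 and 1.53 FPKM after Al, against 5.11, 4.86 and 4.29 FPKM in control, 2.92-fold lower (log2 fold change −1.13, standard error 0.12, adjusted p = 4.10e-05). XTH12 (AT5G57530) had 0.95, 1.03 and 0.91 FPKM after Al, against 2.81, 2.83 and 2.15 FPKM in control, 2.70-fold lower (log2 fold change −0.87, standard error 0.11, adjusted p = 0.0002). These 2 genes had separate groups of values.

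XTH14 (AT4G25820) had 17.2, 25.7 and 22.6 FPKM after Al, against 39.6, 33.2 and 20.7 FPKM in control. Its groups overlapped through control replicate 3, and it was not called (log2 fold change −0.46, standard error 0.22, adjusted p = 0.0938). It was called in 2 of 16 alternatives. They were the fit without control replicate 3 (log2 fold change −0.72, adjusted p = 0.00378) and the replicate block with length correction (−0.59, 0.0468). Markers of root hairs fell as well, as did markers of other root tissues given at the end. All 6 of the listed root hair markers were called lower, beside 38.5% of all tested genes. Their summed level was 30.4 to 35.6 FPKM in the Al samples against 77.5 to 101.1 FPKM in the control samples, and none was at 0. Their part in the fall of XTH12 and XTH26 was not tested.

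XTH31 (AT3G44990), the group IIIA member whose loss is known to lower xyloglucan and Al in the root wall, had 18.4, 30.2 and 22.7 FPKM after Al, against 44.8, 35.7 and 28.1 FPKM in control. Al replicate 2 was above control replicate 3, and the call was weak (log2 fold change −0.59, standard error 0.19, adjusted p = 0.0237). It was lost without Al replicate 1 (adjusted p = 0.0765), Al replicate 3 (0.0630), control replicate 1 (0.0843) or control replicate 2 (0.0572).

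XTH28 (AT1G14720), known from stamen filaments, averaged lower after Al too, with groups that overlapped at 18.7 to 21.1 FPKM in the Al samples and 20.7 to 27.9 FPKM in the control samples (log2 fold change −0.30, standard error 0.11, adjusted p = 0.0340). It lost its call without Al replicate 1 (adjusted p = 0.0908), Al replicate 3 (0.0868), control replicate 1 (0.118) or control replicate 2 (0.0882). Without control replicate 1 or control replicate 2 the count of lower members was 5, since XTH21 and XTH33 then did not pass the filter and XTH28 and XTH31 lost their calls. XTH32 (AT2G36870), the other member of group IIIA, had 1.35 to 1.87 FPKM after Al and 0.66 to 1.28 FPKM in control and was not called (log2 fold change 0.34, standard error 0.15, adjusted p = 0.0759), but was called higher under median-ratio scaling (adjusted p = 0.0357) and quantile normalization (0.0343).

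The remaining tested members, XTH10 (AT2G14620) and XTH11 (AT3G48580), lay between 0.90 and 2.71 FPKM in all samples with overlapping groups and were not called (adjusted p = 0.420 for XTH10 and 0.314 for XTH11). Of the 25 tested members, 19 had groups that did not overlap, counted over both directions and with XTH21 and XTH33 among them. Of all tested genes, 23.3% had every Al sample higher and 42.9% had every Al sample lower, and the count of 19 is to be set beside both shares together.

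The other 8 members did not pass the filter and were not tested in the main fit. XTH1 (AT4G13080) was listed at 0 in every sample, and XTH2 (AT4G13090), XTH3 (AT3G25050) and XTH6 (AT5G65730) stayed at or below 0.43 FPKM. XTH7 (AT4G37800) had 0.51, 0.84 and 0.77 FPKM after Al, against 1.5, 0.55 and 0.37 FPKM in control, with overlapping groups.

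XTH13 (AT5G57540) had 0.09, 0.04 and 0.00 FPKM after Al, all under the level of 3 fragments (0.130 FPKM), against 0.67, 1.27 and 0.60 FPKM in control. XTH25 (AT5G57550) had 0.40, 0.32 and 0.36 FPKM after Al, against 0.24, 0.08 and 0.12 FPKM in control. XTH29 (AT4G18990) had 0.33, 0.20 and 0.22 FPKM after Al, against 0.00, 0.04 and 0.00 FPKM in control. Every control sample of XTH29 was under its level of 3 fragments (0.103 FPKM), as were control replicates 2 and 3 of XTH25 (0.121 FPKM). The groups of these 3 genes did not overlap. In the fit without a filter all of them were called (adjusted p = 0.00177 for XTH13, 0.0138 for XTH25 and 0.00258 for XTH29), with XTH13 lower and the others higher. The same fit called 4192 of all genes higher and 7231 lower, and XTH2, XTH3, XTH6 and XTH7 were not called in it. At most 30 fragments per sample stood behind XTH13, XTH25 or XTH29.

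Some members lie side by side in the genome. By the rule that starts lie within 10000 bp of each other, 11 members form 4 arrays. The array on chromosome 4 from 14819192 to 14830224 holds XTH24, XTH18 and XTH19, and all 3 rose. Of all tested genes 21.3% rose and 38.5% fell. The array on chromosome 5 from 23300321 to 23308680 holds XTH12, XTH13, XTH25 and XTH22 within 8360 bp, and its members went different ways. XTH22 rose 96.1-fold, XTH12 fell, XTH13 was lower in every Al sample and XTH25 was higher in every Al sample at a level under 1 FPKM.

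XTH23 and XTH14 stand next to each other on chromosome 4 from 13128394 to 13131860, and XTH23 rose while XTH14 was not called. XTH1 and XTH2, on chromosome 4 from 7626548 to 7632876, were at or near 0. So neighbours shared a direction in 1 of the 3 arrays with tested members. Whether neighbours share a direction more often than other genes was not tested.

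**Figure D4:**
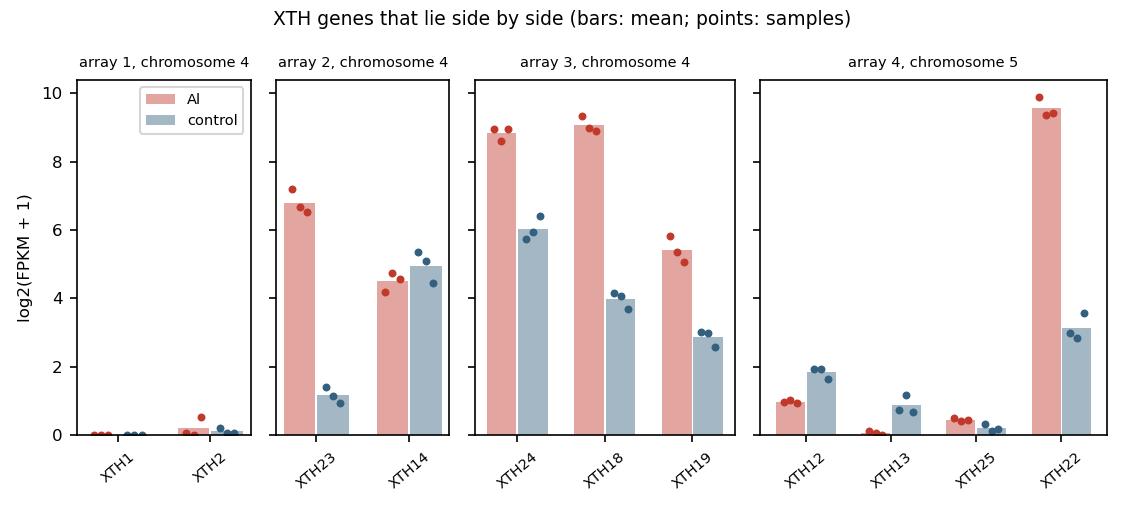
Levels of the XTH genes in the 4 arrays as log2(FPKM + 1), each with the Al bar left of the control bar, where bars are means and points are samples. All 3 genes of the array of XTH24, XTH18 and XTH19 are higher after Al, while in the array of XTH12, XTH13, XTH25 and XTH22 only XTH22 reaches a high level.

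The promoters shown at the start can be set beside these values. XTH18 and XTH20, which hold the rapid stress response element, rose 36.7-fold and 2.82-fold, while XTH13, which also holds it, was lower in every Al sample. XTH17 shares the 73 bases next to the start with XTH18 but holds neither the element nor a W-box core, and it rose 4.14-fold. No motif was tested against the response.

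Of the members, 6 are on the study's list of genes of the transition and elongation zones of the root. XTH16 and XTH17 of them rose (33.3%, beside 21.3% of all tested genes). XTH8, XTH15, XTH21 and XTH33 fell (66.7%, beside 38.5% of all tested genes). Of these, XTH21 and XTH33 passed the filter through the control samples alone, and XTH15 has the antisense overlap given above.

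The other genes of the xyloglucan pathway build, decorate and trim the polymer that XTH enzymes act on. Of the 22 listed genes 21 were tested, of which 5 rose and 9 fell, 23.8% and 42.9% beside 21.3% and 38.5% of all tested genes, and their median log2 fold change was −0.16. Under median-ratio scaling 8 were higher and 7 lower, beside 5381 and 4984 of all 18463 tested genes under the same scaling.

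XXT1, which adds xylose to the glucan backbone, had 87.0, 69.4 and 70.0 FPKM after Al, against 8.69, 7.98 and 7.72 FPKM in control, 9.29-fold higher (log2 fold change 3.06, standard error 0.096, adjusted p = 2.04e-08). CSLC4, which makes the glucan backbone, had 50.9, 41.5 and 34.1 FPKM after Al, against 9.57, 10.3 and 9.05 FPKM in control, 4.38-fold higher (log2 fold change 2.00, standard error 0.13, adjusted p = 1.99e-06). Among the other synthesis genes XXT5 (log2 fold change 0.59), the galactosyltransferase gene MUR3 (0.40) and MUR1 (0.25), which makes GDP-fucose, rose. The antisense gene AT1G74385 overlaps XXT5, and AT1G18680 overlaps XXT4.

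XYL1, the α-xylosidase that trims xyloglucan, had 8.05, 8.63 and 8.33 FPKM after Al, against 32.2, 33.2 and 34.5 FPKM in control, 3.99-fold lower (log2 fold change −1.88, standard error 0.068, adjusted p = 5.03e-08). AT5G20950, annotated as a glycosyl hydrolase family protein, had 18.1, 22.4 and 20.99 FPKM after Al, against 58.4, 55.0 and 59.2 FPKM in control, 2.8-fold lower (log2 fold change −1.45, standard error 0.083, adjusted p = 1.00e-06). The β-galactosidase gene BGAL10 fell as well (log2 fold change −0.95). Of the 5 trimming genes 3 were called lower, beside 38.5% of all tested genes, and none higher, beside 21.3%.

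The other genes that fell were XUT1 (log2 fold change −1.31), known from root hair walls, CSLC5 (−0.71), XXT4 (−0.55), CSLC12 (−0.39), CSLC8 (−0.37) and AXY4 (−0.33), which acetylates xyloglucan. The backbone genes therefore went different ways, with CSLC4 higher, CSLC5, CSLC8 and CSLC12 lower and CSLC6 not called. The fucosyltransferase gene FUT1 (log2 fold change −0.10), XXT2 (0.15), XXT3 (0.16), XLT2 (0.34), the fucosidase gene AXY8 (−0.16) and AT5G04885 (−0.16) were not called, and AXY4L did not pass the filter. The calls of CSLC8, CSLC12 and MUR1 did not survive every leave-out of a sample. CSLC8 lost its call without Al replicate 1 (adjusted p = 0.0713), Al replicate 3 (0.0573), control replicate 1 (0.0639) or control replicate 3 (0.0637). CSLC12 lost it without Al replicate 2 (0.116), Al replicate 3 (0.147), control replicate 1 (0.0703) or control replicate 2 (0.165), and MUR1 without Al replicate 1 (0.0552), Al replicate 2 (0.0627) or control replicate 3 (0.0554). XLT2, a galactosyltransferase gene, was called higher without Al replicate 3 (log2 fold change 0.50, adjusted p = 0.0165).

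**Figure D5:**
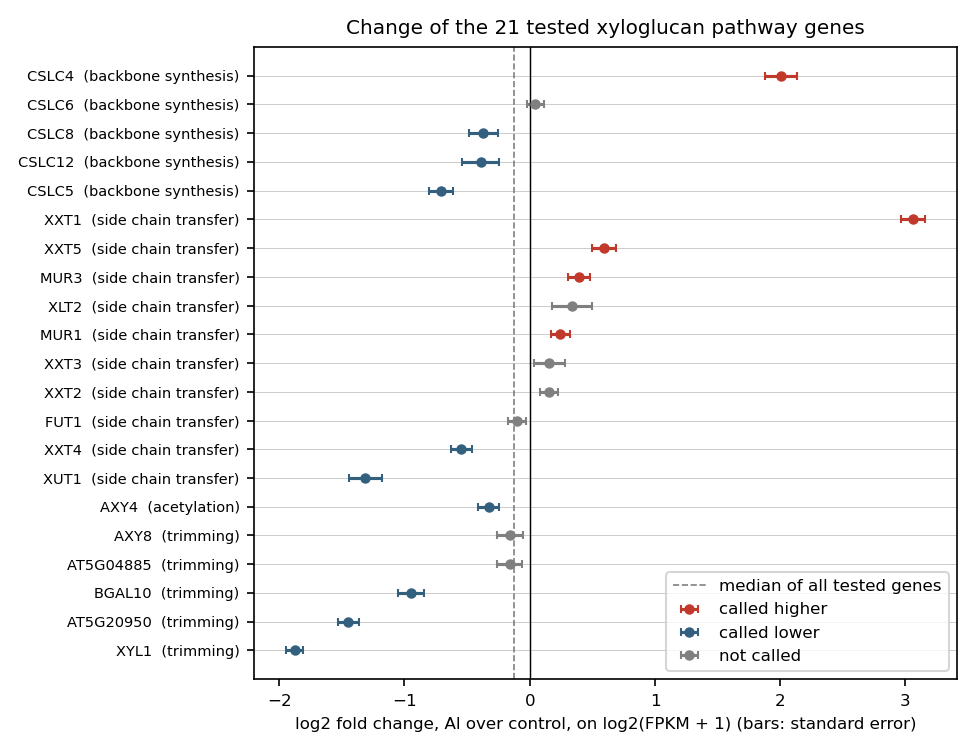
Log2 fold change of Al over control on log2(FPKM + 1) for the 21 tested xyloglucan pathway genes, grouped by role, with bars of 1 standard error. XXT1 (3.06) and CSLC4 (2.00) lie to the right of all others, and the trimming genes XYL1 (−1.88), AT5G20950 (−1.45) and BGAL10 (−0.95) lie to the left.

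Markers of other root tissues also moved. Beside the root hair markers, 4 of 6 endodermis markers, all 3 root cap markers and 3 of 3 tested root meristem markers fell, while 38.5% of all tested genes fell. One of the endodermis markers, CASP5, passed the filter through the control samples alone. Their summed levels were 112 to 128 FPKM in the Al samples against 136 to 189 FPKM in the control samples for the endodermis, 10.11 to 12.29 against 22.8 to 26.7 FPKM for the root cap and 8.21 to 10.8 against 16.5 to 19.7 FPKM for the meristem. Markers of green shoot tissue summed to 11.8 to 18.1 FPKM in the Al samples against 16.6 to 19.1 FPKM in the control samples. Of these 5 markers RBCS1A and RCA were tested, and RCA alone was called, with 7.11 ± 0.561 FPKM after Al and 11.7 ± 0.465 FPKM in control (SD, n = 3 each, log2 fold change −0.64, adjusted p = 0.000188). RBCS1A averaged 6.15 FPKM after Al and 5.53 FPKM in control and was not called. The part of tissue make-up in the falls of XTH members was not tested. No listed marker was called higher.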

How the data were processed

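Groups and replicate numbers were taken from the sample titles, and dose, time and tip length from the study's methods. The authors deposited FPKM values per gene and sample, normalized for transcript length and mapped fragments, and the aligner, counting tool and use of strand are not given in the sources used here. The deposited table also holds the authors' log2 ratio, p-value and q-value, which were not used, and 6 further per-sample columns that equal those used. Gene starts and ends equal TAIR10.1 for 23857 of 24174 genes and for every member.

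Values were tested as log2(FPKM + 1) with limma 3.58.1 in R 4.3.3 (mean-variance trend, two-sided), keeping genes that reached FPKM 1 in 3 or more samples, with Benjamini-Hochberg adjustment over 18463 genes. With 3 samples against 3, an exact permutation test of a single value cannot go below 0.1, so none was used. The members, gene lists and tests were chosen with earlier results of these data known. Values in every sample are given for called members that changed by 1 or more on the log2 scale, the 5 highest members, members in arrays, and the 4 pathway genes with the largest changes, and some further members were added.

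Depth was estimated from steps in low FPKM values of 3102 genes with 1 transcript, where 86.7% to 89.9% of values were no more than 0.15 fragments from a whole number (30% would be by chance). Statements on depth concern counting error alone. The scripts were tested on simulated data. One promoter sequence is not reported here. Promoters and coding sequences were read from the TAIR10.1 genome with Biopython 1.88 under Python 3.11.15, beside matplotlib 3.10.9, scipy 1.17.1, pandas 2.3.3 and numpy 2.4.6. Alternatives were a pseudocount of 0.1, no filter, a filter in every sample, no trend, median-ratio, TPM and quantile scaling, a replicate block alone and with loess correction for GC content or length (span 0.3), and each sample left out in turn.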

Additional observations from a re-analysis of the deposited data

How the results depend on the processing

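Each of 16 alternatives was fitted to the members and to the pathway genes. XTH5, XTH16 to XTH20, XTH22 to XTH24, XTH27 and XTH30 were called higher, and XTH8, XTH9, XTH12, XTH15, XTH21, XTH26 and XTH33 lower, under every alternative in which they passed the filter. XTH28 and XTH31 were called in 10 of 16 each. The count of lower members was 5 to 9 when a sample was left out, and 5 with a further limit of 1 on the log2 scale, when the pathway list had 2 higher and 3 lower and all genes 1190 and 531. Under median-ratio scaling 8 pathway genes were higher, beside 5381 of all genes. XTH28 (log2 fold change −0.16, adjusted p = 0.236) and XTH31 (−0.45, 0.0784) lost their calls under it. A filter in every sample left 10 members higher and 6 lower, beside 3507 and 6653 of all genes. No filter gave 13 and 9, beside 4192 and 7231 of all genes. These include XTH25 and XTH29 among the higher members and XTH13 among the lower, which did not pass the main filter. The mean sum of the members was 3558 TPM in Al samples and 808.6 TPM in control samples under TPM scaling, another unit, and 2552 FPKM and 500.2 FPKM under median-ratio scaling. Leaving out a sample gave 2254 to 2539 FPKM in Al samples and 520.3 to 534.5 FPKM in control samples. The sign turned, with the cause not tested, for XTH4 under TPM scaling (−0.014), quantile normalization (−0.022) and the replicate block with GC correction (−0.13), XTH10 under that same correction (−0.11), CSLC6 under TPM scaling (−0.022), FUT1 under median-ratio scaling (0.037) and AXY8 under the replicate block with length correction (0.055), none of which was called in the main test. Taken over all tested genes, same-numbered Al and control samples did not deviate together (correlations −0.251, −0.0366 and −0.224). The deviations were taken within each group of 3, so these correlations cannot show whether same-numbered samples shared a culture or batch. With the replicate block 11 members were higher and 9 lower, the same members, beside 3648 and 6319 of all genes, CSLC8 and CSLC12 lost their calls and XLT2 gained one. At this depth the 6 members under 1 FPKM in every sample rest on at most 10 fragments per sample.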
